A study of Mus musculus with 19 samples.

Results

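Potassium channels and voltage-gated calcium channels set the electrical state of a cell and the calcium that enters it, and their genes were read out of a set of mouse endometrial RNA-seq libraries. Members were all genes of the count table whose symbol in the GENCODE annotation of GRCm38 starts with Kcn and a further letter or with Cacna, Cacnb or Cacng, with antisense symbols left out. The rule gave 120 of 49089 genes, of which 94 are Kcn genes and 26 are Cacn genes. Families were assigned from the symbols. A gene was tested when it reached 3 CPM (counts scaled to a common library size) in 3 of the 19 libraries, which 60 members did and 60 did not. The exons of 31 members overlap a gene of the opposite strand, and since the strand setting of the counting is not given in the sources used here, reads of such a pair may not be told apart. Of the members named below these are Kcna6, Kcnab1, Kcnd3, Kcne3, Kcnh7, Kcnip4, Kcnj3, Kcnj13, Kcnk1, Kcnk2, Kcnk3, Kcnn1, Kcnn2, Kcnq1, Kcnq5, Kcnt2, Cacna1a, Cacna1d, Cacna1h, Cacnb2 and Cacnb4.

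The study asked how the endometrium changes between the peri-ovulatory state at estrus and the day before implantation. Unmated females collected at estrus gave 3 libraries (CONT, numbered 1, 2 and 4), and females mated to intact males gave 4, collected on day 3.5 pc (INT). On the same day, 3 further groups of 4 (SVX, SVX_VAS and VAS) were collected from females whose mates had been operated on. These groups carry the names of the data columns, because the title and the description of a library disagree on the operation, and no surgery name is drawn from them. Females were wild-type C57Bl/6 mice and the males were BALB/c. The mated females were 8 to 14 weeks old, the endometrium was scraped away from the myometrium, and each library came from a pool of an unstated number of animals, so all p-values measure the spread between pools. Per the paper's methods, the unmated females were collected late in the evening of the day proestrus was detected, and the mated females at midday. In every comparison with CONT, time of day thus differs along with mating, and their parts cannot be told apart. Total counts on genes were 12661266 to 31781270 per library, and the members took 0.0852 to 0.208% of them.

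Potassium channels let potassium leave the cell and hold the membrane at a negative voltage. Their pore is built around a short conserved stretch, the selectivity filter, that passes potassium and refuses sodium. Voltage-gated calcium channels open when the membrane depolarizes, with a pore subunit (alpha 1) and auxiliary alpha2delta, beta and gamma subunits. In the uterus both kinds are best known from smooth muscle contraction, vessel tone and the secretion of ions by the epithelium.

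The coding sequence around the selectivity filter is shown because this stretch belongs to the pore subunits of potassium channels. The longest annotated coding sequence of each gene was translated and searched for 5 codons in a row, for threonine or serine, then valine, isoleucine, threonine or leucine, then glycine, then tyrosine, phenylalanine or leucine, then glycine. Of the 119 members with a usable coding sequence, 63 had 1 match, 14 had 2 and 42 had none. The 14 with 2 matches were all 14 two-pore (Kcnk) genes, whose protein carries 2 pore stretches. The search as planned named only tyrosine or phenylalanine between the glycines. The second filters of Kcnk1, Kcnk6 and Kcnk7 match only because leucine was allowed too, so this count depends in part on the pattern. Every member of the voltage-gated, silent, EAG and ERG, KCNQ, inward rectifier and calcium- or sodium-activated pore families had 1, and no auxiliary subunit and no calcium channel gene had any. Each line gives 45 coding bases from 5′ to 3′ in the sense of the gene, and the capitals mark the 15 bases of the filter.
Kcnb2: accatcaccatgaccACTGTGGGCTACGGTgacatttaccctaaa
Kcnc4: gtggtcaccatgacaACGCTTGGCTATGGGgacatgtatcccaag
Kcnd2: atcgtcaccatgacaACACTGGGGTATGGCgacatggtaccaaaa
Kcnd3: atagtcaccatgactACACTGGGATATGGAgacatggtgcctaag
Kcnj3: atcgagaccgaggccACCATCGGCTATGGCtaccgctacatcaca
Kcnma1: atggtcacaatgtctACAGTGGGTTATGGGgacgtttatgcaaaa
Kcnn4: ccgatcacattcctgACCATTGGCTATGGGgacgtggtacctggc
Kcnk3, second filter: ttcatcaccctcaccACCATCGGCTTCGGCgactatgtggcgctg
Kcnk1, second filter: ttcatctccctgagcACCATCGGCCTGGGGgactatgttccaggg
Kcnk6, second filter: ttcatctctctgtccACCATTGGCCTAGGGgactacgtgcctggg

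On GRCm38 these windows lie at chr1:15710031-15710075 on the plus strand in exon 2 of 2 (Kcnb2) and chr3:107447784-107447828 on the minus strand in exon 2 of 4 (Kcnc4). The Kcnj3 window is at chr2:55437612-55437656, plus strand, exon 2 of 4. The Kcnma1 window is at chr14:23528398-23528442, minus strand, exon 8 of 31, and that of Kcnn4 at chr7:24379183-24379227, plus strand, exon 4 of 9. The Kcnk windows are at chr5:30622187-30622231, plus strand, exon 2 of 2 (Kcnk3), chr8:126025314-126025358, plus strand, exon 2 of 3 (Kcnk1) and chr7:29225521-29225565, minus strand, exon 2 of 3 (Kcnk6). The Kcnd2 and Kcnd3 windows cross from exon 1 to exon 2. Among the lines shown, Kcnb2, Kcnc4, Kcnd2, Kcnd3, Kcnj3, Kcnma1 and Kcnk3 rose after mating and Kcnn4, Kcnk1 and Kcnk6 fell, as given below with their values. In the second filter the fourth codon was CTG in Kcnk1 and CTA in Kcnk6, both for leucine, and TTC in Kcnk3 and TTT in Kcnk2, both for phenylalanine, and Kcnk2 fell as well, so genes that fell carried either residue.

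Compared per length, the two-pore gene Kcnk1 had the highest level of all members in every group. Its level was 116 ± 8.47 CPM per kb of exon (SD, n = 3) at estrus and 37.7 ± 15 (n = 4) in INT. At estrus the next ranks went to Cacna2d3 (12.9 ± 1.65 CPM per kb), Kcnq1 (12.2 ± 0.693), Kcnn4 (11.8 ± 1.77) and Kcnrg (10.6 ± 1.35), whose values lie within their SDs of their neighbours. In INT those ranks went to the calcium channel genes Cacna1g (11.3 ± 1.15 CPM per kb), Cacna1d (9.93 ± 2.22), Cacnb3 (9.53 ± 0.565) and Cacna2d1 (9.34 ± 1.28), which again lie within their SDs of their neighbours. Kcnd2 and Kcnd3, at ranks 49 and 50 of the 120 at estrus, came 6th and 7th in INT.

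**Figure D1:**
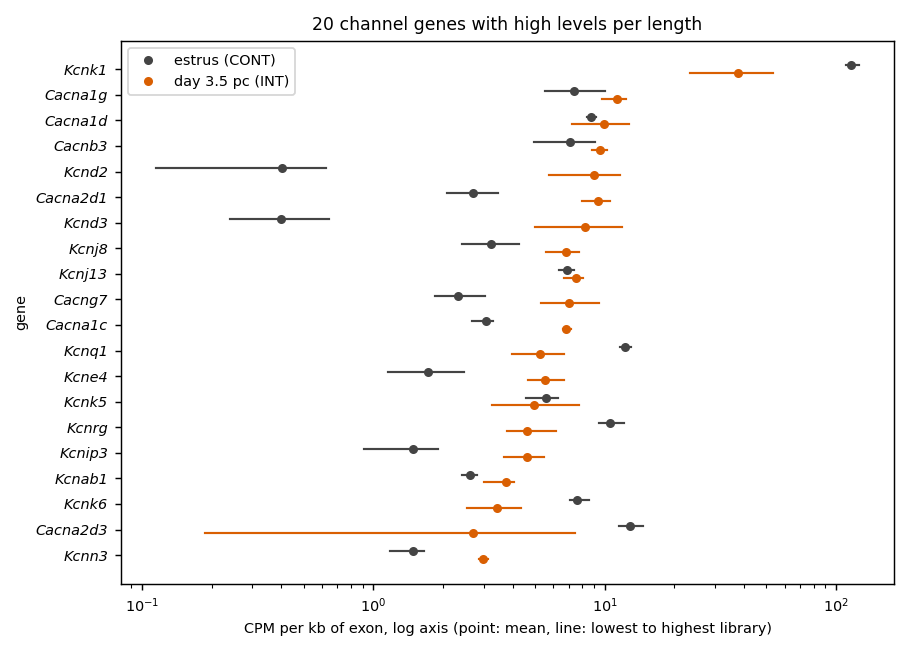
Level per length (CPM per kb of exon, log axis) of 20 tested members described in the text, those with the highest mean over the 19 libraries, at estrus (grey, 3 libraries) and in INT (orange, 4 libraries), with a point for the mean and a line from the lowest to the highest library. Kcnk1 stands above the others in both, and Kcnd2 and Kcnd3 move from below 1 CPM per kb at estrus to between 5 and 11.9 in INT.

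Between INT and CONT, 34 of the 60 tested members were higher on day 3.5 pc, 7 were lower and 19 were not called (edgeR, with the FDR at or under 0.05 and the logFC at or past 0.58 in either direction). Over all 17222 genes tested, 20.9% were higher and 12.7% lower. The paper, at the same FDR and logFC cutoffs, called far fewer genes higher and only Adam33 and Aspg lower. None of the 7 members lower here was thus among its lower genes. The median logFC was 1.06 over the tested members and -0.01 over all genes. Of the tested members, 19 had no estrus library at 3 CPM and so passed the filter only through mated libraries, and 14 of these were called higher. The filter used CPM before TMM scaling. Among members named below these 14 include Kcna6, Kcnb2, Kcnc4, Kcnd2, Kcng4, Kcnh1, Kcnj3 and Kcnk3. They also include Kcnmb1, Kcnn1, Kcnq5, Kcnv2 and Cacng4, and all these calls are given as a description. Of the 41 members with an estrus library at 3 CPM, 20 were higher and 7 were lower, and 1 of these 7, Kcne1, passed the filter only through the estrus libraries. Without the filter, 118 members were fitted, with 47 higher and 5 lower, against 12.6% and 7.01% of 36300 genes. The CONT and INT libraries did not overlap in CPM in 43 of the 60 members (71.7%), against 62.3% of all genes tested. The largest rises and falls named below were taken from called members without overlap, so their lack of overlap follows from that choice. In a bulk sample, a change in the number of cells of a type and a change in RNA per cell cannot be told apart.

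Cell type markers moved between the same groups. The summed CPM of 5 epithelial markers (Epcam, Krt8, Krt18, Krt19, Cdh1) was 2990 to 4102 in CONT and 566 to 2114 in INT, with 4 of 5 lower. The 6 endothelial markers summed to 132 to 197 CPM in CONT and 512 to 793 in INT, with all 6 higher, and the 5 pericyte markers to 296 to 377 and 825 to 1182, with all 5 higher. Stromal markers summed to 5982 to 6500 CPM in CONT and 7181 to 10161 in INT (2 of 6 higher), smooth muscle markers to 391 to 799 and 499 to 1378 (1 of 8 higher), and T and NK cell markers to 6.79 to 21.4 and 41.7 to 70.0 (6 of 6 higher). The part of these shifts in the channel results was not tested. Macrophage markers summed to 112 to 169 CPM in CONT and 172 to 242 in INT (4 of 5 higher, 1 lower), and markers of nerve and glia to 6.73 to 11.1 and 9.71 to 12.8 (none of 1 tested called). Neutrophil markers summed to 2.01 to 6.49 and 3.91 to 5.26 CPM (none of 1 tested called), and gland markers, 4.49 to 15.8 CPM in CONT, reached 53.0 to 417 in INT (3 of 4 higher). Progesterone-responsive genes summed to 115 to 155 CPM in CONT and 1350 to 2760 in INT, with 6 of 6 higher.

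**Figure D2:**
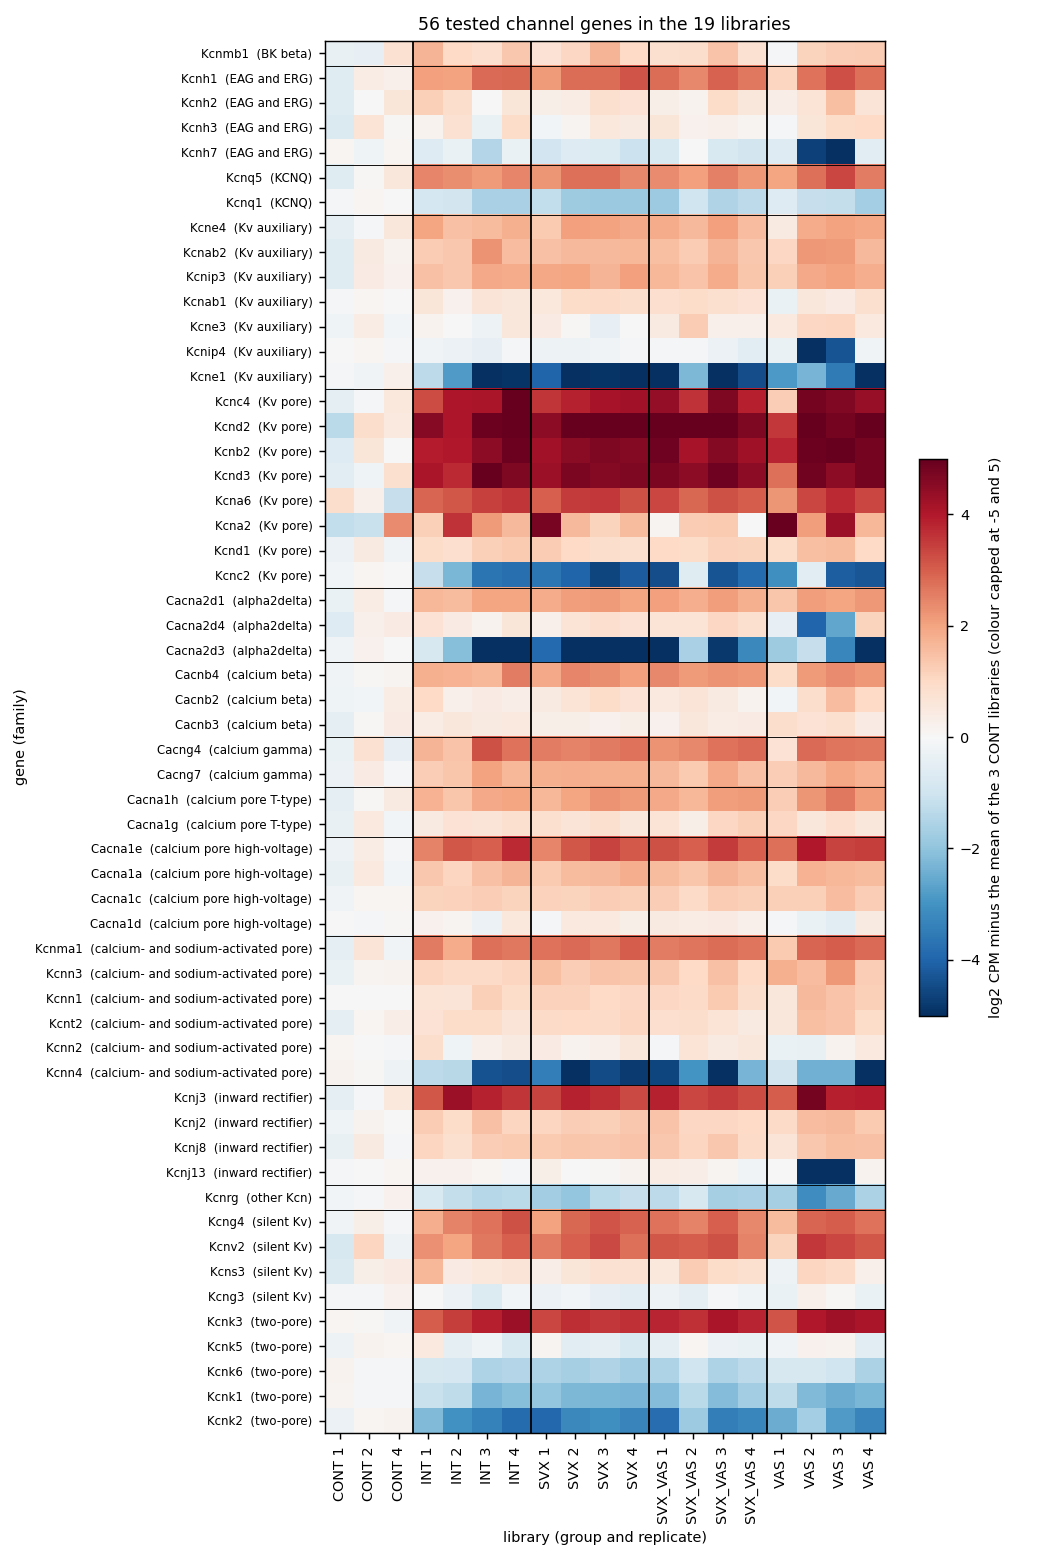
Log2 CPM of 56 tested members, those described in the text (rows, by family) in the 19 libraries (columns, by group), with the mean of the 3 CONT libraries taken off, red above it and blue below it, and the colour capped at -5 and 5. Most rows turn red in every mated group, a smaller set turns blue, and 4 rows (Kcnh7, Kcnip4, Kcnj13 and Cacna2d4) are blue in VAS 2 and VAS 3 and near the CONT level or closer to it in VAS 1 and VAS 4.

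The largest fitted rise was that of Kcnc4 (logFC 5.26, SE 0.86), a voltage-gated (Kv) pore gene, followed by the inward rectifier Kcnj3 (4.60, SE 0.51). Kv pores repolarize excitable cells. Of the 10 Kv pore genes tested, 8 were higher in INT, none was lower and Kcna2 and Kcnc2 were not called. Over all genes tested, 20.9% were higher and 12.7% lower. Kcnd2 and Kcnd3 encode Kv4 channels of the fast transient current. Kcnd2 was at 0.591, 3.21 and 2.41 CPM in CONT and at 42.7, 29.6, 53.7 and 59.6 CPM in INT. Kcnd3 was at 2.3, 3 and 6.18 CPM in CONT and at 60.9, 48.0, 114 and 93.1 CPM in INT. Every INT library was far above every CONT library for both genes. The logFC was 4.45 (SE 0.50, FDR 6.72e-06) for Kcnd2 and 4.40 (SE 0.49, FDR 6.72e-06) for Kcnd3. The exons of Kcnd3 overlap those of the antisense gene Kcnd3os.

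Kcnb2, a delayed rectifier, was at 0.532, 1.43 and 0.904 CPM in CONT and at 15.2, 16.0, 22.4 and 30 CPM in INT, with a logFC of 4.40 (SE 0.39, FDR 1.66e-06). The groups lie well apart, but Kcnb2 passed the filter only through mated libraries, so its call is given as a description. Kcnc4, of the fast Kv3 type, had 7 counts in the 3 CONT libraries together and 305 in the 4 INT libraries, a ratio of 41.4 in CPM with a 95% counting interval of 19.8 to 104. This interval covers counting error only and leaves out the spread between pools. Kcnc4 was called by edgeR and not by limma-voom in any of the 4 mated groups (logFC 4.95 and FDR 0.0966 in INT). Kcna6, a Shaker-type channel, was at 1, 0.606 and 0.151 CPM in CONT and at 4.43, 5.07, 6.40 and 7.03 CPM in INT (logFC 3.24, SE 0.45, FDR 3.32e-05). It too passed the filter only through mated libraries, and its call is given as a description. Here too no INT library reached down to a CONT library. Kcnd1 rose by less, with a logFC of 1.05. Kcna3, the channel of T cells, was not tested because of its low level, with a mean of 0.434 ± 0.119 CPM in CONT and 2 ± 0.333 in INT.

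**Figure D3:**
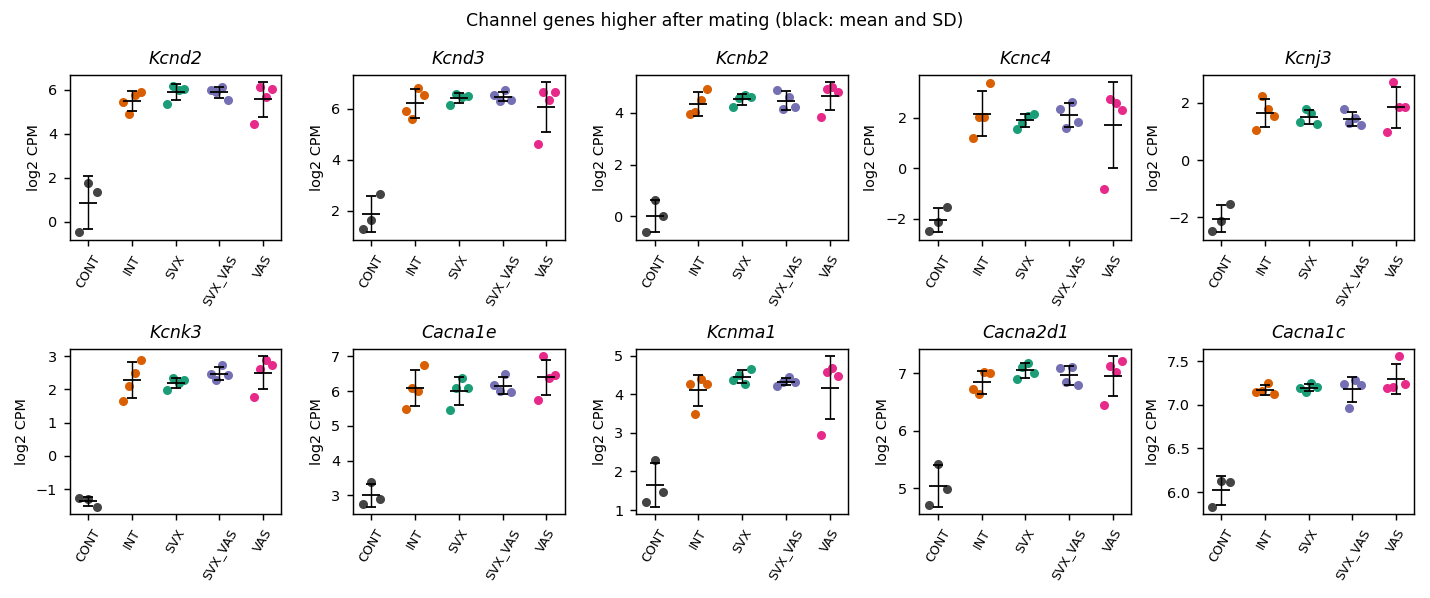
Log2 CPM of 10 members that were higher in INT than in CONT, 1 panel a gene, with a point for each library by group and a black bar for the mean and SD. In every panel the INT points lie above the CONT points, and VAS 1 is the lowest of the 16 mated libraries for Kcnd2 (21.2 CPM), Kcnd3 (24.1) and Kcnma1 (7.62). For the members named as largest rises, the gap between CONT and INT follows from how they were chosen.

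Silent Kv subunits form no channel alone and modify Kcnb channels. Kcng4 was at 0.650, 0.927 and 0.678 CPM in CONT and at 2.93, 4.76, 5.61 and 7.65 CPM in INT (logFC 2.77, SE 0.41, FDR 5.50e-05). It passed the filter only through mated libraries, so its call is given as a description. Kcnv2 rose as well (logFC 2.50, SE 0.59), while Kcns3 and Kcng3 were not called. Kcng3 had the highest level per length of this family over the libraries and was at 11.7 ± 1.57 CPM in CONT and 9.84 ± 2 in INT. The interval of its logFC was -0.61 to 0.10.

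Among the EAG and ERG genes, Kcnh1 (EAG1) rose from 0.532, 1.18 and 1.05 CPM to 3.98, 3.94, 6.97 and 7.23 CPM (logFC 2.57, SE 0.46, FDR 2.77e-04). The groups did not overlap, which follows from how the named rises were chosen. Kcnh1 passed the filter only through mated libraries, so its call is given as a description. Kcnh2, the ERG channel of the heart and of uterine muscle, was at 3.13, 4.82 and 7.31 CPM in CONT and at 11.2, 8.83, 4.76 and 7.30 CPM in INT, with overlapping groups and no call (logFC 0.66, SE 0.34, FDR 0.124). Without CONT 4 it would be called (logFC 1.01). Kcnh3 and Kcnh7 were not called.

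The KCNQ genes moved in opposite directions. Kcnq5 rose, with a logFC of 2.50 (SE 0.35). Kcnq1, whose channel serves potassium recycling in epithelia, was at 47.8, 53.3 and 49.3 CPM in CONT and fell to 27.2, 26.4, 16.3 and 16.3 CPM in INT. The highest INT library was still under the lowest CONT library (logFC -1.22, SE 0.25, FDR 9.41e-04). The exons of Kcnq1 overlap the antisense gene Kcnq1ot1.

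Kcne1, the auxiliary subunit that slows the Kcnq1 channel, passed the filter only through CONT, where it was high, so its call is given as a description. It was at 5.26, 4.99 and 6.70 CPM in CONT and at 2.18, 0.689, 0 and 0.0696 CPM in INT. All 4 INT libraries were lower, and they differed widely among themselves (logFC -2.97, SE 1.16, FDR 0.0454). The logFC was -2.57 to -3.05 where the call was lost, which was without CONT 1 (FDR 0.0842), CONT 2 (0.0750), CONT 4 (0.0973), INT 2 (0.0889), INT 3 (0.0875) or INT 4 (0.111). It was also lost with DESeq2 (logFC -2.94) and without the filter (-2.99), and without INT 1 the logFC was -4.45. Of the other auxiliary genes, Kcne4, which damps Kv channels, rose from 4.59 ± 1.78 to 14.7 ± 2.34 CPM (logFC 1.69, SE 0.34, FDR 6.93e-04), and Kcnip3 and Kcnab2 rose with logFC of 1.62 and 1.63. Kcnab1, Kcne3 and Kcnip4 were not called.

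Of the inward rectifiers, which hold the resting potential, 3 of 4 tested were higher, beside 20.9% of all genes tested. Kcnj3, a subunit of channels opened by G proteins, had 7 counts in the 3 CONT libraries and 198 in the 4 INT libraries, a ratio of 26.9 in CPM with a 95% counting interval of 12.8 to 67.7, without the spread between pools. Its exons overlap those of the opposite-strand gene Gm26794. Kcnj8, the pore of the vascular channel closed by ATP, was at 6.14, 10.9 and 7.76 CPM in CONT and at 16.8, 14.2, 18.8 and 19.8 CPM in INT (logFC 1.07, SE 0.21, FDR 6.27e-04). Kcnj2, the classical inward rectifier, was at 4.67, 6.03 and 5.50 CPM in CONT and at 13.2, 10.3, 14.8 and 11.5 CPM in INT (logFC 1.21, SE 0.18, FDR 6.31e-05). For both, the lowest INT library was above the highest CONT library. Abcc9, the partner subunit of Kcnj8 and a gene of the partner list, had a logFC of 0.52, under the size cutoff, and the other partner Abcc8 rose (logFC 2.06, SE 0.41).

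The two-pore genes, which carry the leak of potassium at rest, split. Kcnk3 (TASK1) was at 0.295, 0.285 and 0.226 CPM in CONT and at 3.01, 4.20, 5.55 and 7.30 CPM in INT (logFC 4.17, SE 0.35, FDR 1.35e-06). It passed the filter only through mated libraries, so its call is given as a description. Kcnk1 (TWIK1) was at 282, 251 and 248 CPM in CONT and at 119, 107, 52.2 and 59.1 CPM in INT (logFC -1.63, SE 0.31, FDR 4.77e-04). Kcnk3 was low in all estrus libraries and Kcnk1 high in all of them, with no overlap in either. Kcnk2 (TREK1), opened by stretch, fell from 11, 14.7 and 15.3 CPM to 2.86, 1.57, 1.19 and 0.835 CPM (logFC -3.09, SE 0.51, FDR 1.47e-04). Kcnk6 (TWIK2) fell from 35.6, 29.2 and 29.5 CPM to 18, 17.5, 10.5 and 11.1 CPM (logFC -1.14, SE 0.22, FDR 4.61e-04). Kcnk5, the other two-pore gene tested, was not called. For Kcnk2 and Kcnk6 the groups lie apart, and INT 1 had the highest value of the INT libraries in Kcnk1, Kcnk2 and Kcnk6. The exons of Kcnk1, Kcnk2 and Kcnk3 overlap opposite-strand genes (Gm45875, A430027H14Rik and Gm9899).

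Channels opened by calcium couple calcium entry to potassium exit, and Kcnma1, the BK channel of smooth muscle, was at 2.19, 4.78 and 2.64 CPM in CONT and at 19, 11.1, 20.9 and 19.2 CPM in INT. All INT libraries were above all CONT libraries (logFC 2.44, SE 0.36, FDR 6.67e-05). Its beta subunit Kcnmb1 was at 1.30, 1.25 and 3.01 CPM in CONT and at 5.79, 3.57, 3.12 and 4.52 CPM in INT (logFC 1.21, SE 0.39, FDR 0.0180). This call was lost without CONT 1 (FDR 0.0878) or CONT 2 (FDR 0.0867). Kcnn3 (SK3), known from vessels and from uterine muscle, was at 12.3, 17.1 and 17.3 CPM in CONT and at 32.4, 30.2, 29.9 and 32.7 CPM in INT (logFC 1.01, SE 0.19, FDR 4.09e-04). The 4 INT values are close to each other and far from CONT. Kcnn1 and Kcnt2 rose, with logFC of 0.90 and 0.78, and Kcnn2 was not called.

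Kcnn4 (IK), a channel of epithelia and leukocytes, went the other way. It was at 68.2, 62.2 and 50.4 CPM in CONT and at 24.0, 22.9, 2.83 and 2.64 CPM in INT. The INT libraries formed an upper and a lower pair, both under CONT. The logFC was -2.20 (SE 0.87, FDR 0.0467), and the call was lost without CONT 1 (FDR 0.102), CONT 2 (0.0838), CONT 4 (0.0682), INT 3 (0.0993) or INT 4 (0.110), and also without the filter (logFC -2.23). In VAS its call (logFC -2.11, FDR 0.0479) was lost without any 1 of CONT 1, 2 or 4 or VAS 2, 3 or 4 (FDR of 0.068 to 0.102). Kcnrg, which encodes a regulator of Kv channel assembly and has no filter match, fell from 8.09, 8.70 and 10.3 CPM to 5.26, 3.88, 3.23 and 3.48 CPM (logFC -1.19, SE 0.34, FDR 8.27e-03).

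The calcium channel genes rose or were not called. Of the 15 tested, 9 were higher in INT and none was lower, beside 20.9% higher and 12.7% lower over all genes tested. Cacna1e (Cav2.3) was at 6.56, 10.2 and 7.31 CPM in CONT and at 44.5, 68.4, 63.9 and 107 CPM in INT (logFC 3.13, SE 0.34, FDR 5.98e-06). Cacna1c (Cav1.2), the L-type pore of smooth muscle and heart, was at 56.8, 69.6 and 69.2 CPM in CONT and at 142, 143, 152 and 140 CPM in INT (logFC 1.15, SE 0.10, FDR 1.66e-06). Neither gene had overlapping groups, and the INT values of Cacna1c lay between 140 and 152 CPM. Cacna1a rose as well (logFC 1.38, SE 0.22). Cacna1d (Cav1.3), the other L-type pore tested, was at 80.7, 77.6 and 85.0 CPM in CONT and at 93.6, 89.6, 66.9 and 117 CPM in INT, with overlapping groups and an interval of the logFC from -0.22 to 0.58.

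The T-type pores open near the resting potential. Cacna1h was at 5.08, 7.45 and 9.72 CPM in CONT and at 24.1, 18.9, 26.7 and 28.8 CPM in INT (logFC 1.73, SE 0.28, FDR 1.42e-04). Cacna1g was at 56.3, 101 and 66.7 CPM in CONT and at 98.7, 120, 114 and 126 CPM in INT. CONT 2 reached into the INT range for Cacna1g but not for Cacna1h. The Cacna1g logFC of 0.61 (SE 0.21, FDR 0.0237) was just over the cutoff, and the call was lost without CONT 1 (FDR 0.132), CONT 4 (0.0900), INT 3 (0.0558) or INT 4 (0.0584).

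Of the auxiliary calcium channel subunits, alpha2delta and beta carry the pores to the membrane and set their gating. Cacna2d1 was at 26.0, 43.1 and 31.8 CPM in CONT and at 105, 99.4, 130 and 129 CPM in INT (logFC 1.78, SE 0.19, FDR 5.25e-06). Cacng7 was at 4.49, 7.42 and 5.12 CPM in CONT and at 13.0, 14.5, 23.0 and 17.9 CPM in INT (logFC 1.58, SE 0.23, FDR 4.34e-05). In both, the INT libraries lie above CONT without overlap. Cacng4 and Cacnb4 rose (logFC 2.40 and 2). Cacnb3, the beta subunit with the highest level per length, was at 15.5, 22.5 and 28.2 CPM in CONT and at 27.7, 31.9, 29.4 and 30 CPM in INT, a logFC of 0.43 under the cutoff (FDR 0.0310). CONT 4 lay within the INT range, and without it the gene would be called (logFC 0.65).

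**Figure D4:**
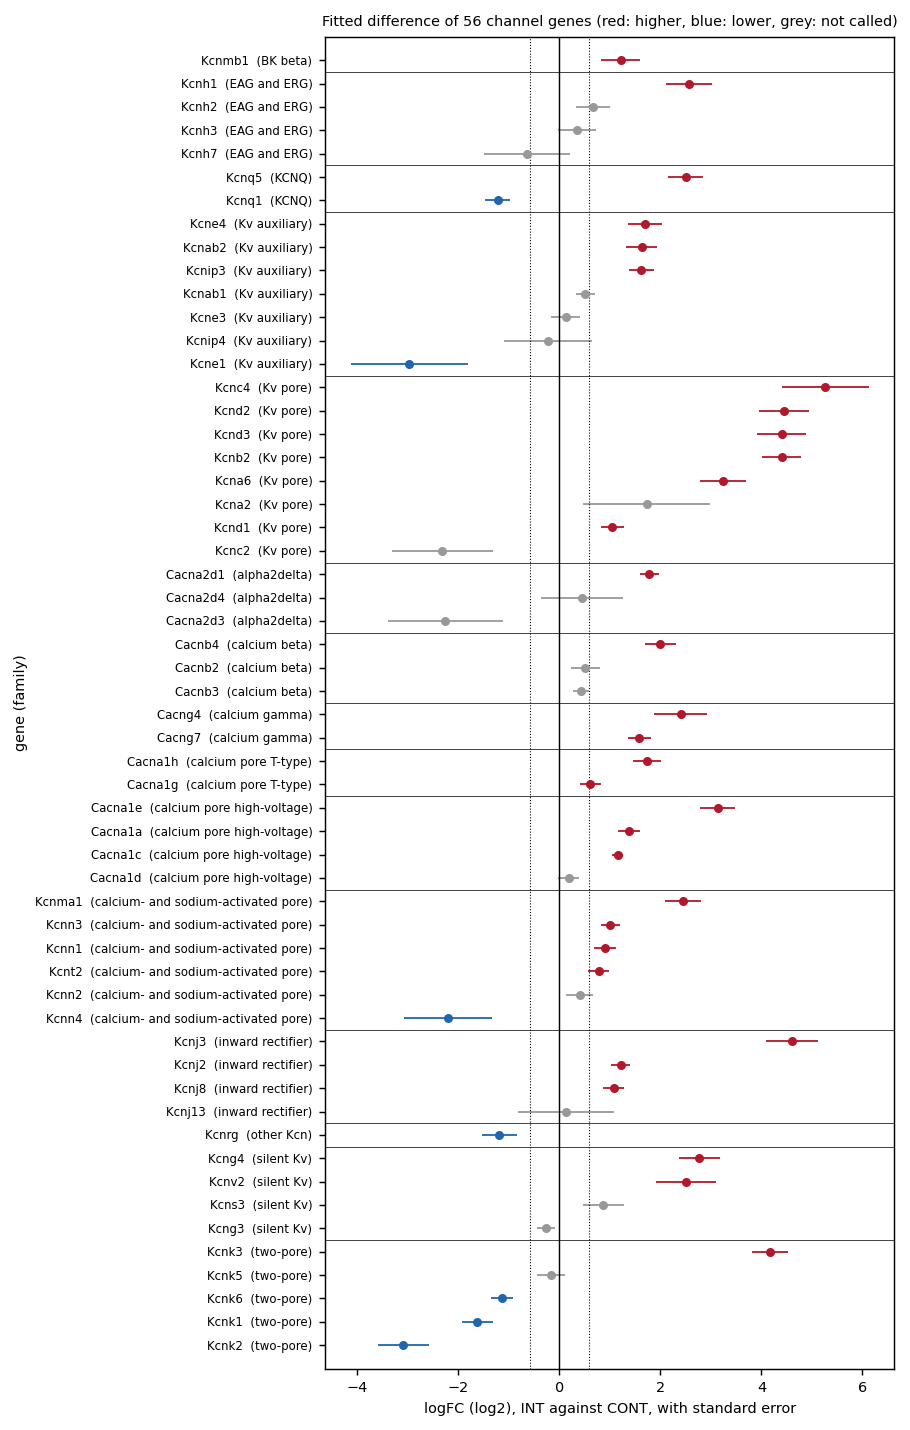
Fitted logFC of the same 56 members in INT against CONT (horizontal axis, log2, with the standard error), by family, with dotted lines at the cutoff of 0.58 in either direction. The 31 members in red and the 7 in blue were called, and the 7 lower ones are 3 two-pore genes, Kcnq1, Kcne1, Kcnn4 and Kcnrg.

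Of related genes, the list of channel partners (subunits and regulators of these channels) had 7 of 11 tested higher and 1 lower. Over all genes tested, 20.9% were higher and 12.7% lower. Stac2, which binds L-type channels, rose by 2.80 on the log2 scale, and Rem1, Rrad and Gem, small GTPases that inhibit calcium channels, rose by 1.14, 1.53 and 1.34. The 1 that fell was Lrrc26, a gamma subunit of the BK channel in epithelia, from 23.0 to 4.19 CPM in the means (logFC -2.46, SE 0.94, FDR 0.0401). Calcium transport genes had 10 of 21 higher and 2 lower, beside the same 20.9% and 12.7% of all genes. The ryanodine receptors Ryr1 and Ryr3, which release stored calcium, had logFC of 3.46 and 2.78, and the lower ones were Stim2 (-1.01), a sensor of stored calcium, and Itpr3 (-1.30), a store release channel. Of the sodium-potassium pump genes, 6 of 10 were higher and 1 lower, beside the same shares of all genes. The 1 that fell was Fxyd3, a regulator of the pump, with a logFC of -1.28.

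The other mated groups were compared with the same 3 CONT libraries, so the counts of the 4 comparisons are not independent of each other. In SVX 35 members were higher and 9 lower, with 23.1% and 18.5% of all genes. In SVX_VAS 34 were higher and 8 lower (22.2% and 16.5% of all genes), and in VAS 37 were higher and 7 lower (23.3% and 17.3%). For Kcnd2 the means were 60 ± 13.6 CPM in SVX, 59.6 ± 9.59 in SVX_VAS and 51.5 ± 21.7 in VAS, beside 46.4 ± 13.2 in INT and 2.07 ± 1.34 in CONT. For Kcnk1 they were 56.6 ± 7.33, 73.9 ± 21.0 and 66.0 ± 28.5, beside 84.3 ± 33.6 in INT and 260 ± 18.9 in CONT. The 3 groups lie inside or near the INT range for both genes and far from CONT.

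Some calls held in part of the groups. Kcnmb1 was called higher in INT and SVX, with means of 3.98 ± 1.32 CPM in SVX, 3.51 ± 0.851 in SVX_VAS (FDR 0.0530) and 3.45 ± 1.24 in VAS (FDR 0.0555). In SVX it was lost without CONT 1 (FDR 0.102), CONT 2 (0.105) or SVX 3 (0.0803). Kcnab1, a beta subunit of Kv channels, was called higher in SVX (logFC 0.83, SE 0.19) and SVX_VAS (0.81, SE 0.19). In VAS alone, Cacnb2 (logFC 0.93), Kcne3 (0.79) and Kcna2 (3.16) were called. Kcna2 passed the filter only through mated libraries, so its call is given as a description. The Cacnb2 call was lost without CONT 1 (FDR 0.0605) or CONT 2 (0.0501), that of Kcne3 without CONT 1 (0.120), CONT 4 (0.103), VAS 2 (0.0663) or VAS 3 (0.0740), and that of Kcna2 without CONT 1 (0.151), CONT 2 (0.146), VAS 1 (0.105) or VAS 3 (0.0722). Cacnb3 was called in VAS too, with a logFC of 0.68 that was 0.48 without CONT 1. The Cacna1g calls were lost without CONT 1 in SVX (logFC 0.49) and VAS (0.55) and without CONT 4 in SVX (0.58), and that of Kcnt2 in SVX_VAS without CONT 1 (logFC 0.49, FDR 0.0752). Kcne1 in VAS lost its call without CONT 4 (FDR 0.0501) and with DESeq2 (FDR 0.0573), and Kcnn4 in VAS without the filter (FDR 0.0599). Whether an effect differed between mated groups was tested only against INT, as given below.

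Kcnc2 and Cacna2d3, chosen after their values were seen, were high in estrus and very uneven after mating. Kcnc2, a Kv3 channel, was at 55.9, 65.7 and 61.8 CPM in CONT. In INT it was at 27.5, 12.5, 4.76 and 4.38 CPM, in SVX at 4.87, 3.67, 2.40 and 3.27, in SVX_VAS at 39.8 in library 2 and 2.74 to 4.09 in the others, and in VAS at 7.17, 41.0, 3.36 and 3.02. All 16 mated libraries were below CONT, but it was called only in SVX (logFC -4.10, SE 1.08, FDR 3.88e-03), with FDR of 0.0663, 0.0624 and 0.0740 in INT, SVX_VAS and VAS. Cacna2d3 was at 42.5, 54.4 and 46.3 CPM in CONT and at 27.4, 10.9, 1.08 and 0.696 CPM in INT, 3.10 or less in SVX, 15.3 in SVX_VAS 2 and 21.4 in VAS 2. It was called in SVX (logFC -5.22, SE 1.31) and in SVX_VAS (logFC -3.06, FDR 0.0360), the second call being lost without any 1 of CONT 1, 2 or 4 or SVX_VAS 1, 3 or 4 (FDR of up to 0.0901).

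Estrogen-responsive genes (Ltf, C3, Muc1, Lcn2 and Clca1) varied between the same libraries. Their summed CPM was 10756 to 14252 in CONT. In INT it was 9328, 3201, 183 and 251, in SVX 554, 219, 189 and 222, in SVX_VAS 231, 10258, 230 and 1015, and in VAS 2568, 1029, 519 and 187. INT 1, INT 2, SVX_VAS 2 and VAS 1 thus have the higher sums of their groups. INT 1 and INT 2 also have the higher values of Kcnn4, Kcnc2, Cacna2d3, Kcnk1 and Kcne1 in INT, and SVX_VAS 2 the highest value of its group in all of these but Kcnn4. The part of this in the channel results was not tested. With INT 1 and INT 2 left out together, 34 members were higher and 9 lower in INT against CONT, with 22.2% and 16.7% of all genes. VAS 1 had the highest Kcnn4 (31.7 CPM) and Kcnk1 (108 CPM) of the VAS libraries, while VAS 2 had the highest Kcnc2, Cacna2d3 and Kcne1. VAS 2, with 41.0 CPM of Kcnc2, had an estrogen-responsive sum of 1029 CPM.

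**Figure D5:**
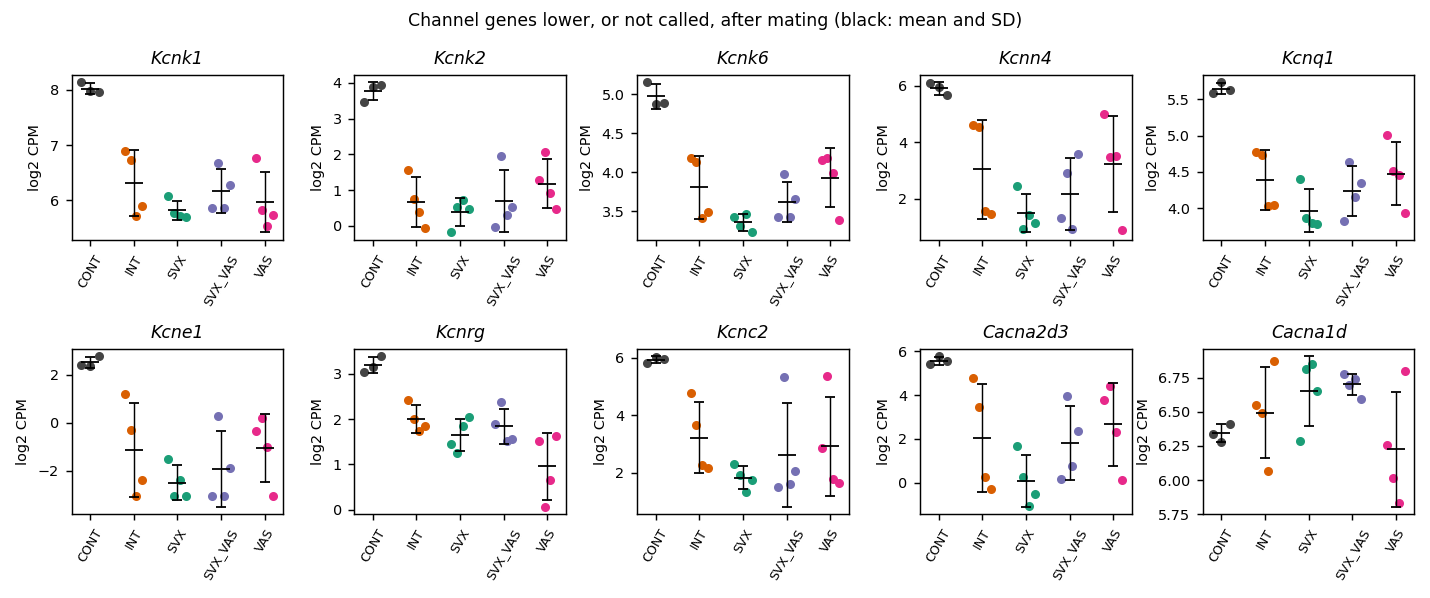
Log2 CPM of 7 members that were lower in INT than in CONT (Kcnk1 to Kcnrg) and of 3 that were not called there (Kcnc2, Cacna2d3 and Cacna1d), with a point for each library by group and a black bar for the mean and SD. The CONT points lie above all mated points in the first 9 panels, INT splits into a higher and a lower pair for Kcnn4 (24.0 and 22.9 against 2.83 and 2.64 CPM), and Cacna1d overlaps between groups. For the 7 lower members, the gap between CONT and INT follows from how they were chosen.

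Against INT, no member was called in SVX, SVX_VAS or VAS with edgeR, and no gene of the 17222 was, so that the percentage called was 0 in each direction of each comparison. At an unadjusted p under 0.05 there were 4 members in SVX (Cacna2d3, Kcnk6, Kcnn3 and Kcnn4), none in SVX_VAS and 3 in VAS (Kcne3, Kcnn3 and Kcnrg), where 4.35%, 1.97% and 10.6% of all genes were under it. DESeq2 called no member in any of the 3. In VAS against INT limma-voom called 6 members (10% of the 60) and 9.66% of all genes. These 6 were Kcnj13, Kcnh7, Kcnip4 and Cacna2d4, with logFC of -4.33, -3.30, -3.79 and -3.01, Kcnrg (-1.17) and Kcnn3 (0.68). In edgeR the first 4 had logFC of -1.05, -0.98, -0.99 and -0.95, with FDR of 0.534 to 0.547. Kcnn3 was at 53.0, 45.0, 70.4 and 36.6 CPM in VAS, above all 4 INT libraries. Every SVX library was above them as well (5.18 to 5.45 in log2 CPM, against at most 5.04 in INT). In edgeR, Kcnn3 was called in VAS against INT without VAS 1 (logFC 0.70, FDR 0.0454) or without VAS 4 (logFC 0.84, FDR 0.0315). It was the 1 member called where 3.36% and 0.784% of all genes were.

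Values of Kcnj13, Kcnip4, Kcnh7 and Cacna2d4 turn on the pair of libraries VAS 2 and VAS 3. Kcnj13, an inward rectifier of transporting epithelia, was at 0 and 0.0934 CPM in VAS 2 and VAS 3 and at 7.67 to 11.2 CPM in the other mated libraries. Kcnip4, a Kv4 subunit, was at 0 and 0.467 CPM there and at 7.82 to 11.3 in the others. Kcnh7 was at 0.0927 and 0 CPM against 1.81 to 5.29, and Cacna2d4 at 0 and 0.187 against 1.29 to 3.86. A count of 0 in VAS 2 allows up to 0.179 CPM before scaling, for counting error only. VAS 2 and VAS 3 also stand apart in the nuclear RNA Malat1, at 0.0703 and 0.0723% of counts against 0.724 to 1.41% in the other 17, and in stromal markers, with sums of 1861 and 2022 CPM against at least 5982. In all 4 genes only the VAS libraries 2 and 3 were near 0. The exons of Kcnj13, Kcnip4 and Kcnh7 overlap opposite-strand genes. Without VAS 2 and VAS 3, 35 members were higher and 7 lower in VAS against CONT, with 23.4% and 12.5% of all genes.

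Of the 60 members under the filter, 2 had no count in any library, 15 had 1 to 19 counts over all 19 libraries and 32 had 100 or more. Without the filter, 13 of them were called higher in INT and none lower, among them Kcna3, Kcna5 (16 counts in CONT and 84 in INT) and Kcnmb2 (2 and 29). Kcnj16, an inward rectifier of transporting epithelia and chosen after its values were seen, had 89 counts in all, of which 59 were in SVX_VAS 2 (3.25 CPM) and 26 in VAS 2 (1.21 CPM), with at most 1 in each other library.

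Promoter windows from 250 bases before to 50 after the start were found in RefSeq (GRCm38.p6) for 89 members, 123 windows in all. Both strands were searched for the full estrogen receptor palindrome (GGTCANNNTGACC), the progesterone and glucocorticoid receptor palindrome (GNACANNNTGTNC) and the CRE palindrome (TGACGTCA). With 1 match among the members in all, no matches overlapped. The estrogen receptor palindrome was in none of the member windows and in 0.07% of 32851 windows of the same length. The CRE was in none and in 1.79% of all, and the progesterone and glucocorticoid receptor palindrome in 1 (0.813%) and in 0.475% of all. That 1 was Kcna5, at chr6:126535506-126535805 on the minus strand, and its window is shown with the match in capitals.
Kcna5 promoter: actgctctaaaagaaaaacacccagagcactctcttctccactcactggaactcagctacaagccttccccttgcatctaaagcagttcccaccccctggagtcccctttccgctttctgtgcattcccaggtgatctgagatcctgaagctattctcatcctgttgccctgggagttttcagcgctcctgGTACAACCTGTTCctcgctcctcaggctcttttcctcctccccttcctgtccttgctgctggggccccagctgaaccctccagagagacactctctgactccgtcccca

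The match starts 59 bases before the start (position -59). Kcna5, a Kv1 channel of vessels and heart, was below the filter, with a mean of 0.293 CPM in CONT and 1.34 in INT. Without the filter it was called higher in INT, as given above, and the part of this match in that was not tested.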

How the data were processed

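Raw counts of reads per gene were deposited by the authors without normalization, with gene length as a further deposited column, whose other use here was the level per kb. Per the paper's methods, pooled endometrial RNA was sequenced as stranded total RNA, aligned with STAR to GRCm38 and counted with featureCounts, and the strand setting is not given in the sources used here. The members and gene lists were chosen with earlier results of these data known. Counts of 19 libraries were fitted together by the quasi-likelihood method of edgeR 4.0.16 (R 4.3.3), scaled by TMM factors and with group as the only term. Tested genes had at least 3 CPM in at least 3 libraries, and p-values were adjusted over all of them with the Benjamini-Hochberg method, with cutoffs of an FDR of 0.05 and a logFC of 0.58. CPM use TMM factors, and log2 CPM a prior count of 2. Errors are SD of libraries or SE of the fit, intervals are at 95%, and a count of 0 allows 3 counts. Named members were, of those called in INT against CONT without overlap, the 10 largest rises and all 7 falls (the rule allowed 10), the highest of each family per length, and those with a textbook role. The fit was tested on simulated data. Alternatives were DESeq2 1.42.0 and its size factors, limma-voom (limma 3.58.1), no filter, 2 groups only, a replicate block and libraries left out. The Kcnk, Kcnj and other sequences come from GENCODE and RefSeq. Figures were drawn with matplotlib 3.10.9. Some tested members and related genes are not reported here by name and are left out of the figures, while the counts include them.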

Additional observations from a re-analysis of the deposited data

Results flagged for a closer look

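In groups of 4 libraries, 1 library stood far from the other 3 by Dixon's ratio in 12 of 132 groups searched over the named members, where chance gives 6.6. In VAS 1, Kcnc4 was at 0.448 CPM (others 4.84 to 6.58), Kcnd3 at 24.1 (80.7 to 102), Kcne4 at 5.99 (16.1 to 18.2), Kcnma1 at 7.62 (22.0 to 25.6) and Kcnmb1 at 1.62 (3.80 to 4.28). These 5 values were all the lowest of their group, and all were above the CONT mean of the gene except that of Kcnmb1, 1.85 CPM. VAS 1 also stood apart in summed marker CPM, with 1853 for epithelium (408 to 690 in the other VAS libraries), 406 for endothelium (505 to 820), 596 for progesterone-responsive genes (1037 to 2205) and 2568 for estrogen-responsive genes (187 to 1029), and their part in these values was not tested. Cacna1c was at 188 CPM in VAS 3 (others 147 to 151) and at 124 in SVX_VAS 2 (150 to 156). Kcnj2 was at 14.6 CPM in SVX_VAS 1 (10.8 to 11), Kcnmb1 at 4.78 in SVX_VAS 3 (3 to 3.20) and Kcnma1 at 11.1 in INT 2 (19 to 20.9). In SVX 1, Kcnk1 was at 67.6 CPM (52.0 to 54.3) and Kcnq1 at 21.1 (13.7 to 14.5).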

How the results depend on the processing

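No direction reversed under any alternative run. Of the 120 alternative values of the 8 counts of called members, 117 stayed within 1.5 times the reported count. The 3 others concern VAS against INT, where 0 members were called, 6 with limma-voom (where 9.66% of all genes were called) and 1 each without VAS 1 (3.36%) and without VAS 4 (0.784%), a range of 0 to 1 over the single libraries left out. The cause was not tested. Over 115 results of named members against CONT, 1595 values kept their side of the cutoffs, 45 lost the call and 2 gained it. With a replicate block 33 members were higher and 9 lower in INT against CONT (20.2% and 12.3% of all genes). Deviations from the group means of same-numbered libraries had a median r of 0.047 over 36 pairs (-0.688 to 0.58). Pairs of number 1 outside SVX_VAS were all positive (0.125 to 0.326), but 15 of the 36 were over 0.1 where the pairing asked for all, so the numbers were not taken as pairs. Leaving out VAS 2 and 3 in comparisons without VAS, and INT 1 and 2, was chosen after seeing the data.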
